A study of Mus musculus with 9 samples.

Results

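E2F factors and retinoblastoma proteins were followed in 3 subsets of mouse splenic B cells by RNA sequencing. The genes were taken by symbol from the table of expression values, which lists 24459 rows, and 10 rows matched: E2f1 to E2f8, Rb1 (RB) and Rbl1 (p107). The subsets were follicular (FO) B cells with high IgD, follicular B cells with low IgD, which the study calls BDL and examines as regulatory B cells, and marginal zone (MZ) B cells. Each had 3 libraries, so there were 9 in all. The design sets the mRNA profile of BDL against those of its 2 neighbouring subsets.

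The cells came from naive C57/BL6 mice, by the labels, aged 8 to 10 weeks, with no treatment. The study's text names B10.PL mice for this experiment, and which of the names holds is not known here. FO and BDL cells were sorted with the same gate (B220+IgMintCD21intCD23+CD93-) and differed by surface IgD only (IgD-HI or IgD-LO), whereas MZ cells were B220+IgMhiCD21hiCD23-CD93-. Each library was a pool of splenocytes from 5 mice, so n = 3 counts pools and not animals. Replicates 1, 2 and 3 of the 3 subsets share a number in their titles that reads as a date and is called the date below. The titles do not say which step was done on it. The 6 B cell markers summed to between 3226 and 4506 FPKM in every library. Between MZ and FO cells the markers followed the labels. Of 6 MZ markers 5 were at least 2-fold higher in MZ, and all 4 FO markers were at least 2-fold lower. BDL had more of the MZ markers Cd9 (7.32 against 1.98 FPKM) and S1pr3 (2.14 against 1.15) than FO, and less of the FO marker Cd55 (195 against 297). The other 4 MZ and 3 FO markers did not pass between BDL and FO in the test described below. Although all gates excluded CD93, Cd93 mRNA was measured at 10.2 to 15.9 FPKM in BDL, against 3.097 to 5.29 in FO and 1.12 to 1.74 in MZ cells. By flow cytometry the study also found more CD93 on BDL than on FO and MZ cells, and it describes BDL as CD93int. Sequencing depth, read from the steps between the lowest values, was about 53400000 to 72200000 fragments per library.

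E2F proteins bind DNA at the promoters of genes needed for DNA synthesis and mitosis, mostly as dimers with a DP protein. E2F1, E2F2 and E2F3 are the activators, E2F4 and E2F5 act mainly with the pocket proteins p107 and p130 to hold genes off in resting cells, E2F6 represses with a Polycomb complex, and E2F7 and E2F8 are atypical repressors that bind without DP. The pocket proteins RB, p107 and p130 bind E2Fs until cyclin-dependent kinases phosphorylate them, and loss of E2f1 and E2f2 or of Rb1 is known to disturb the growth control of lymphocytes. E2f1, E2f7, E2f8 and Rbl1 are themselves known targets of E2F in cycling cells.

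To show the DNA that bears on this last point, the 250 bases before the transcription start were read from RefSeq (build GRCm38.p6), whose table held 9 such windows for 7 of the 10 genes. E2f4, E2f5 and Rb1 were not among them. Capitals mark matches on either strand to the letters TTCGCGC (found in Rbl1), TTGGCGC (found in E2f7 and E2f8), TTCCCGC (found in E2f3 and E2f7) or TTGCCGC (found in no member), which are forms of the E2F site. At least 1 match was found in 7.89% of 32851 promoter windows of the same length. The windows of E2f7, E2f8 and Rbl1 are given because they hold such letters, and the upstream one of the 2 windows of E2f2 because this gene differed most of the members between BDL and MZ cells and the window holds none.
E2f7 (chr10:110745189-110745438, + strand): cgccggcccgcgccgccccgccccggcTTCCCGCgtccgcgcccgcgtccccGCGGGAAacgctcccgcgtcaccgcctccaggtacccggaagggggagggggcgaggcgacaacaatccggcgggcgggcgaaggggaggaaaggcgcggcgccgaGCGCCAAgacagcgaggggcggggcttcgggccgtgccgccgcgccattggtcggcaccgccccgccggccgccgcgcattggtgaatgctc
E2f8 (chr7:48881597-48881846, - strand): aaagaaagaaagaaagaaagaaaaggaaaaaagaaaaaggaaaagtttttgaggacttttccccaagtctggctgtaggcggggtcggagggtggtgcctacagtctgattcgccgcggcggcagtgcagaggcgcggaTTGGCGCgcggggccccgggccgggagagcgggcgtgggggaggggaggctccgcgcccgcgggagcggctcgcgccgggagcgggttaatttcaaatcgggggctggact
Rbl1 (chr2:157204535-157204784, - strand): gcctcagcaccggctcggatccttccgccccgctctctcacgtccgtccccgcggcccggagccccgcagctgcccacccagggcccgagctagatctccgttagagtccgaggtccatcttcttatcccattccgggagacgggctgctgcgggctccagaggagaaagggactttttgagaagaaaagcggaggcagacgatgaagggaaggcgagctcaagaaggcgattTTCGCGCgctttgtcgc
E2f2 (chr4:136172024-136172273, + strand): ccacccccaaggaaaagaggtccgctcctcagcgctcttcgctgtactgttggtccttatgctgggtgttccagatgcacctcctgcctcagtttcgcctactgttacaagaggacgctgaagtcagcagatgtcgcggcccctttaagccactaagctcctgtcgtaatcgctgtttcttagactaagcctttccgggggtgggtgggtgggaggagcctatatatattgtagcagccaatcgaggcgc

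E2f7 held 3 matches, which began 223, 198 and 92 bases before the start, and 0.776% of all windows held 2 or more. E2f8 held TTGGCGC from 111 to 105 bases before the start and also, in lower case on the other strand, TTTGAA from 20 to 15 bases before it. TTTGAA and TTCGAA are forms of the CHR element, through which the DREAM complex of p130, E2F4 and MuvB holds mitotic genes off, and 17.1% of windows held either of them. TTTGAA was also found in the other window of E2f2, from 31 to 26 bases before its start, and in a window of E2f3, from 23 to 18 bases. Rbl1 held TTCGCGC from 17 to 11 bases before its start. The same window of E2f3 held TTCCCGC on the other strand from 11 to 5 bases before the start, whereas those of E2f1, E2f2 and E2f6 had no E2F match. The E2f1 window was found within E2f1 transcripts over 100% of its length. It therefore does not show whether the DNA before the start of those transcripts holds an E2F match. A match is a string of letters and does not show that a factor was bound.

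On the build of the expression values (NCBIM37, mm9), E2f1 spans chr2:154385143-154395628 on the - strand, E2f2 chr4:135728309-135751972 on the + strand and E2f8 chr7:56121799-56136966 on the - strand, and expression was given over all exons of each gene. The unit was fragments per kilobase of transcript, scaled to library size (FPKM), which allows genes to be compared per length. E2f4 was the most abundant E2F in each subset, with 38.1 ± 1.75 FPKM (mean ± SD, n = 3) in FO, 40.0 ± 2.53 in BDL and 34.2 ± 1.25 in MZ cells. In FO cells Rb1 came next (23.8 ± 0.793), followed by E2f2 (11.9 ± 1.51), Rbl1, E2f5, E2f3, E2f6 and E2f1 (1.62 ± 0.0447), and no neighbours in this order overlapped. E2f8 and E2f7 came last at under 0.1 FPKM and overlapped each other. BDL had the same leading genes, but E2f5 overlapped E2f3, and E2f1 overlapped E2f6. In MZ cells Rb1 (39.0 ± 6.40 FPKM) overlapped E2f4 at the top, and Rbl1, E2f3 and E2f2 followed at 5.51, 5.26 and 5.10 FPKM with overlapping libraries.

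Differences between subsets were tested with limma on log2(FPKM + 0.1) over the 11597 rows whose mean reached 0.5 FPKM. A gene rose or fell where its Benjamini-Hochberg adjusted p was under 0.05, and was called where the fold was also at least 2. Of the 10 genes 8 passed the minimum, and E2f7 and E2f8, which did not, were read from a fit of the same kind over 18518 rows with no minimum. All fold changes below are on the log2(FPKM + 0.1) scale, which understates the change of low genes. The 3 comparisons share libraries and are not independent of each other. In sorted cell pools, fewer cells that make a transcript and less transcript per cell cannot be told apart.

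**Figure D1:**
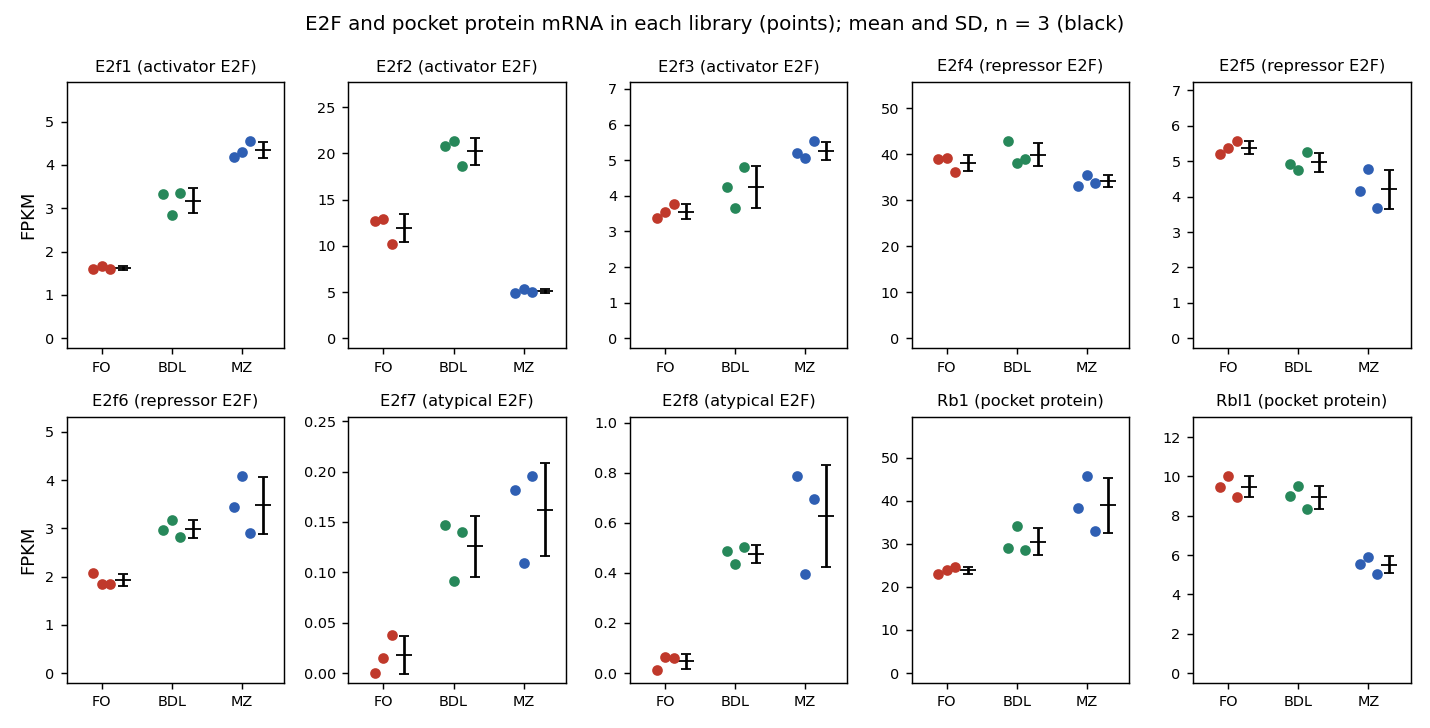
FPKM (y axis, linear, a scale of its own for each gene) of the 10 genes in FO, BDL and MZ cells (x axis). Points are single libraries, ordered as replicates 1, 2 and 3, and black marks are the mean and SD of the 3. E2f1 climbed from FO to BDL to MZ, E2f2 was highest in BDL and lowest in MZ, and Rbl1 was lowest in MZ, each without overlap in those steps.

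Compared with FO cells, BDL had more mRNA of E2f1, E2f2, E2f6, E2f7 and E2f8, while no member fell. Of the 8 tested, 3 rose, 0 fell and 0 were called, while over all rows tested 6.04% rose, 1.68% fell (7.73% together) and 1.91% were called. With no minimum 5 of 10 rose and 1, E2f8, was called, where 5.94% of rows passed and 1.63% were called. In 6 of the 10 genes the BDL libraries lay wholly above those of FO, and in 0 wholly below. Over the rows tested this was the case for 24.4% and 10.3%, or 34.8% together. Those rows leave out E2f7 and E2f8, which are among the 6 genes but did not reach the minimum.

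BDL and MZ cells differed most in E2f2, with higher E2f2 and Rbl1 and lower E2f1 in BDL. Of the 8 tested, 2 rose and 1 fell in BDL relative to MZ, and 1 was called, while over all rows 16.5% rose, 11.6% fell (28.1% together) and 7.8% were called. The libraries were apart in 5 of 10 genes, 3 higher and 2 lower in BDL, and in 38.9% of all rows tested (22.6% higher and 16.4% lower). E2f7 and E2f8 are among the 10 genes, where both overlapped, but not among those rows. When the date was fitted as a replicate block, 6 of the 8 passed, 3 in each direction. In that fit 42.7% of all rows passed. The 3 additional ones were E2f3 (adjusted p = 0.0209), E2f4 (adjusted p = 0.0430) and Rb1 (adjusted p = 0.0324).

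Between MZ and FO cells, 7 of the 8 members tested passed, all but E2f4. E2f1, E2f3, E2f6 and Rb1 rose in MZ, and E2f2, E2f5 and Rbl1 fell, with E2f1 and E2f2 called in opposite directions. Over all rows 14.3% rose, 12.8% fell (27.1% together) and 8.92% were called. With no minimum 9 of 10 passed, and 3 members were called higher and 1 lower, where 21.3% of rows passed and 7.62% were called. The libraries of the 2 subsets were apart in 10 of 10 genes, 6 of them higher and 4 lower in MZ, against 46.1% of rows (23.6% higher and 22.5% lower). Those rows leave out E2f7 and E2f8, which are both among the 6 higher genes.

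**Figure D2:**
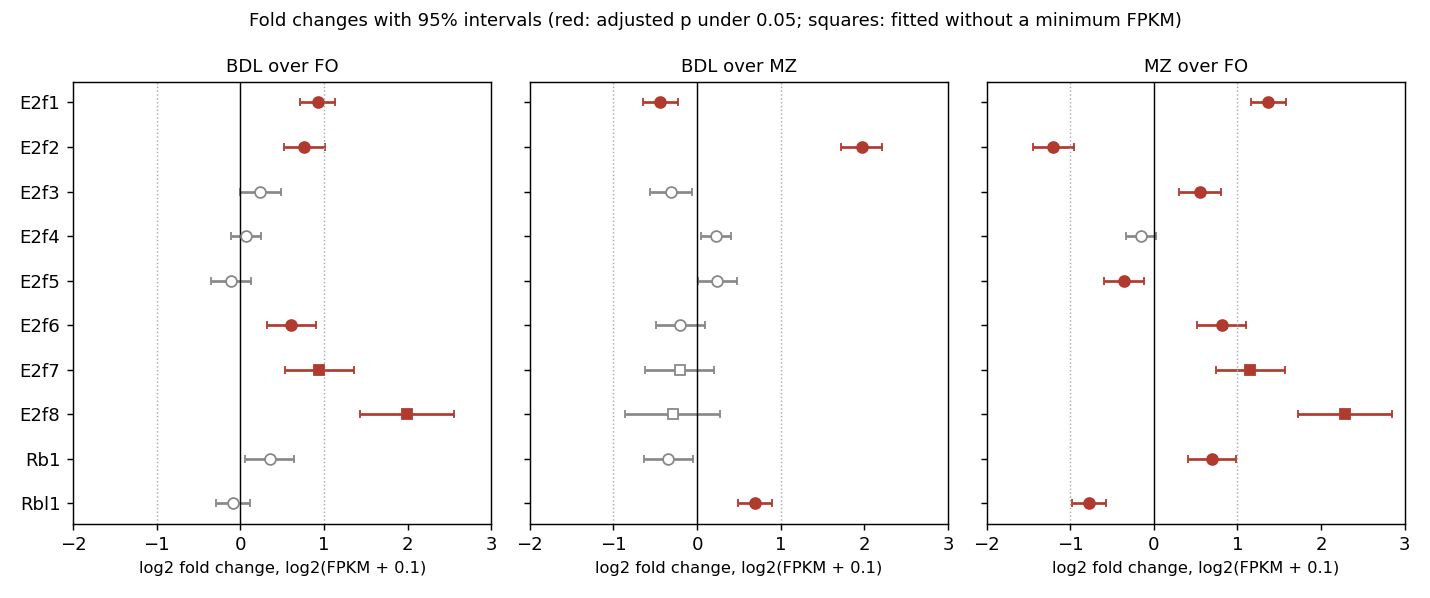
Log2 fold change of each gene (x axis, on log2(FPKM + 0.1); gene on the y axis) in the 3 comparisons, with 95% intervals from limma. Red marks have an adjusted p under 0.05, squares come from the fit with no minimum, and dotted lines mark 2-fold. E2f2 stands at 0.76, 1.97 and -1.20 from left to right, and E2f1 at 0.93, -0.44 and 1.37.

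Among the activators, E2f1, which drives entry into S phase and can also trigger apoptosis, was measured at 1.598, 1.67 and 1.59 FPKM in FO replicates 1, 2 and 3, at 3.32, 2.85 and 3.36 in BDL, and at 4.19, 4.30 and 4.54 in MZ. No subset overlapped another, and BDL lay between FO and MZ. E2f1 rose by 0.93 on the log2 scale in BDL over FO (SE 0.0909, adjusted p = 0.00123), with a ratio of means of 1.96, and by 1.37 in MZ over FO (adjusted p = 1.93e-05), a ratio of 2.68. It fell by 0.44 in BDL relative to MZ (adjusted p = 0.00811). On each of the 3 dates the order was the same.

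E2f2, a close relative of E2f1 that is also known to restrain T cell proliferation, followed another order. It stood at 12.6, 12.9 and 10.2 FPKM in FO, at 20.8, 21.3 and 18.6 in BDL and at 4.94, 5.38 and 4.97 in MZ replicates 1 to 3. BDL was highest and MZ lowest with no overlap, and replicate 3 was the lowest library in FO and BDL. The rise in BDL over FO was 0.76 on the log2 scale (SE 0.107, adjusted p = 0.00542), a ratio of means of 1.70. Relative to MZ the rise was 1.97 (SE 0.107, adjusted p = 9.11e-06), a ratio of 3.97, and MZ fell below FO by 1.20 (adjusted p = 8.55e-05). E2f3, the other activator, was at 3.37, 3.53 and 3.77 FPKM in FO, 4.25, 3.65 and 4.82 in BDL, and 5.20, 5.05 and 5.53 in MZ. BDL overlapped FO, while all MZ libraries lay above both. E2f3 rose by 0.55 in MZ over FO (SE 0.108, adjusted p = 0.00618), whereas the BDL over FO value of 0.24 (95% interval -0.01 to 0.49) and the BDL over MZ value of -0.31 (adjusted p = 0.0643) did not pass. Without BDL replicate 3 the latter passed (adjusted p = 0.0291), as it did with upper quartile scaling (-0.42, adjusted p = 0.0432).

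**Figure D3:**
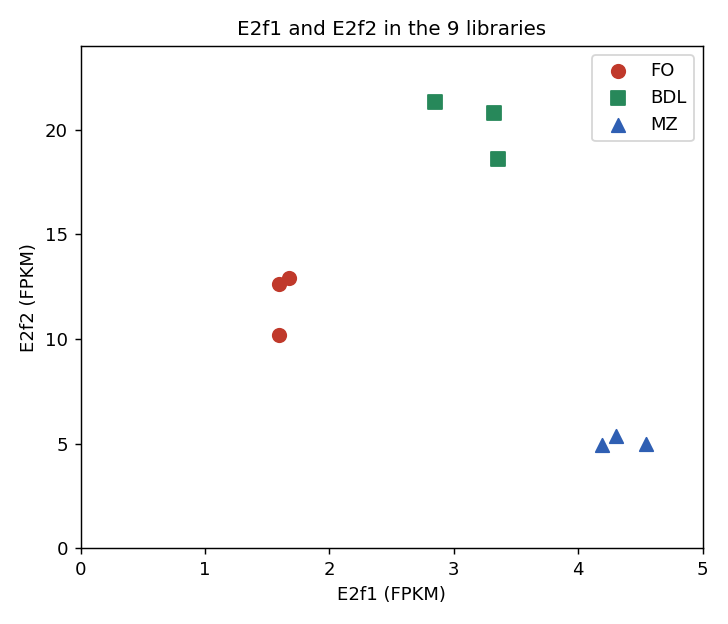
E2f1 (x axis) against E2f2 (y axis) in FPKM, both linear and from 0, with 1 symbol per library. The MZ libraries lie at high E2f1 and low E2f2, the BDL libraries have the highest E2f2, and the FO libraries have the lowest E2f1.

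The ratio of the 2 activators therefore differed by subset. There were 7.34 ± 0.830 FPKM of E2f2 per FPKM of E2f1 in FO cells, 6.42 ± 0.982 in BDL and 1.18 ± 0.0774 in MZ (SD, n = 3). FO and BDL overlapped in this ratio, and MZ lay apart from both. Summed over E2f1 to E2f8 the family reached 62.5 ± 2.99 FPKM in FO, 76.2 ± 3.06 in BDL and 57.4 ± 2.02 in MZ. E2f2 made up 19.0% ± 1.55 of that sum in FO, 26.6% ± 1.89 in BDL and 8.88% ± 0.108 in MZ. E2f1 made up 2.59%, 4.17% and 7.58% in the same order. The 3 activators together held 27.3% ± 0.900 in FO, 36.3% ± 0.963 in BDL and 25.6% ± 1.003 in MZ, so that BDL lay above both, while FO and MZ overlapped. E2f4 alone held 60.9%, 52.4% and 59.6%.

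**Figure D4:**
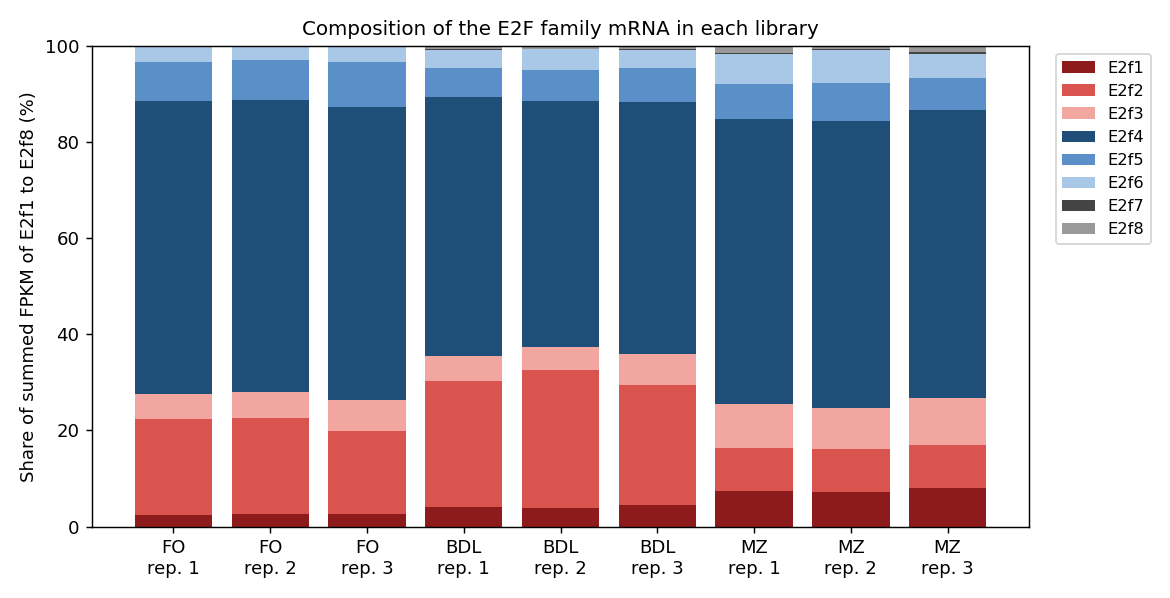
Share of each E2F in the summed FPKM of E2f1 to E2f8 (y axis, %) in the 9 libraries (x axis), with activators in red, E2f4 to E2f6 in blue and the atypical E2Fs in grey. The red part is 35.6% to 37.4% in BDL, 26.3% to 28.0% in FO and 24.7% to 26.7% in MZ.

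E2f2 was not the only transcript with a peak in BDL, and markers of other cells were read beside it. The summed level of 8 erythroid genes was 16.8 to 19.2 FPKM in BDL, 4.05 to 6.31 in FO and 4.77 to 8.04 in MZ. This sum followed the globins Hbb-b1 and Hbb-bt, while Slc4a1 was at 0 in 8 of the 9 libraries, and Klf1, Alas2 and Epor stayed under 0.5 FPKM. Of 7 T cell genes, 4 stayed under 0.5 FPKM in all libraries, but the list summed to 18.9 to 23.7 FPKM in BDL, 9.67 to 11.1 in FO and 7.51 to 13.1 in MZ. Nearly all of that was Lck, at 17.7 to 21.9 FPKM in BDL against at most 11.02 elsewhere, while Cd3e stayed under 0.5. Of the germinal centre genes Rgs13 was at 3.42 to 6.37 FPKM in BDL and under 0.3 elsewhere, with 3 of the 6 genes under 0.5 in all libraries, and the list summed to 32.8 to 35.5 in BDL, 31.7 to 37.9 in FO and 9.99 to 11.9 in MZ. The plasma cell gene Sdc1 was at 6.86 to 9.58 FPKM in BDL, 1.22 to 1.67 in FO and 0.114 to 0.289 in MZ, whereas the 5 genes of its list summed to 128 to 207, 186 to 223 and 224 to 296. The 4 transitional B cell genes, Cd93 among them, summed to 457 to 695 FPKM in BDL, 305 to 367 in FO and 361 to 463 in MZ, so BDL and MZ overlapped. Most of this sum was Cd24a, at 332 to 534 FPKM in BDL, 209 to 251 in FO and 341 to 439 in MZ. Cd24a passed neither in BDL over FO (adjusted p = 0.0674) nor in BDL over MZ (adjusted p = 0.841). Vpreb3, the next highest, passed in BDL over MZ but not in BDL over FO (adjusted p = 0.264). What part these transcripts had in the E2f2 level was not tested.

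Of the repressor group, E2f4 passed in no comparison. It was at 38.9, 39.3 and 36.1 FPKM in FO, 42.8, 38.1 and 39.0 in BDL and 33.2, 35.6 and 33.9 in MZ. FO and BDL overlapped, and the MZ libraries lay just below both. The log2 difference was 0.07 in BDL over FO (95% interval -0.11 to 0.25, and -0.01 after quantile normalization), 0.22 in BDL over MZ (adjusted p = 0.0667) and -0.15 in MZ over FO (adjusted p = 0.190). The difference between BDL and MZ passed without BDL replicate 2 (adjusted p = 0.0499), with no minimum (adjusted p = 0.0476) and with no minimum and 1 in place of 0.1 added (adjusted p = 0.0418).

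E2f5, the closest relative of E2f4, was measured at 5.20, 5.38 and 5.56 FPKM in FO, 4.91, 4.74 and 5.26 in BDL and 4.15, 4.79 and 3.68 in MZ. FO lay wholly above MZ, and BDL overlapped both. E2f5 fell by 0.36 on the log2 scale in MZ relative to FO (SE 0.102, adjusted p = 0.0341). That call was lost, with adjusted p between 0.0549 and 0.1, when any FO library, BDL replicate 1, MZ replicate 1 or MZ replicate 3 was left out. Leaving out MZ replicate 2 brought a difference between BDL and MZ past the threshold (0.34, adjusted p = 0.0278, against 0.24 and 0.116 with all libraries). That difference also passed with quantile normalization (0.32, adjusted p = 0.0374).

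E2f6, which lacks the domain for binding pocket proteins, was at 2.07, 1.84 and 1.86 FPKM in FO, 2.96, 3.18 and 2.82 in BDL and 3.44, 4.08 and 2.91 in MZ. All FO libraries were lower than those of BDL and MZ, which overlapped. The rise over FO was 0.61 in BDL (SE 0.129, adjusted p = 0.0273) and 0.81 in MZ (adjusted p = 0.00213). The first of these was lost, with adjusted p between 0.0539 and 0.107, when any FO or BDL library or MZ replicate 1 was left out. E2F6 works in the Polycomb complex PRC1.6, and of 14 genes for its partners 0 passed in BDL over FO. In BDL over MZ 4 of the 14 rose and 0 fell, and in MZ over FO 1 rose and 1 fell. Over all rows 7.73%, 28.1% and 27.1% passed in these 3 comparisons. The list medians were 0.16, 0.11 and -0.10, against 0.05, 0.06 and -0.01 for all rows. The 5 germline genes that E2F6 is known to silence all had means under 0.5 FPKM and none was tested.

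The atypical E2f7 and E2f8 were low throughout, and lowest in FO. E2f8 stood at 0.0136, 0.0640 and 0.0615 FPKM in FO, close to 3, 14 and 13 fragments. In BDL it was 0.487, 0.437 and 0.505 FPKM (100, 116 and 115 fragments), and in MZ 0.787, 0.396 and 0.697 (159, 78 and 163 fragments). Every BDL and MZ library exceeded every FO library, whereas BDL and MZ overlapped because of MZ replicate 2. E2f8 rose by 1.995 on the log2 scale in BDL over FO (SE 0.242, adjusted p = 0.00488) and by 2.29 in MZ over FO (adjusted p = 4.57e-04), with ratios of means of 10.3 and 13.5. The BDL over MZ value was -0.29 (95% interval -0.86 to 0.27, adjusted p = 0.465).

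E2f7 was at 0, 0.0151 and 0.0375 FPKM in FO, 0.147, 0.0913 and 0.140 in BDL and 0.182, 0.109 and 0.196 in MZ. In fragments this came to about 0, 5 and 12, then 45, 36 and 47, and then 54, 32 and 68. The 0 in FO replicate 1 allows a level of up to 0.00932 FPKM at that depth, for counting error only. FO was below both other subsets, which overlapped. E2f7 rose by 0.95 in BDL over FO (SE 0.177, adjusted p = 0.0245) and by 1.155 in MZ over FO (adjusted p = 0.00283). Adjusted p for the former was 0.0757 to 0.0920 when FO replicate 1, FO replicate 2, BDL replicate 1 or BDL replicate 3 was left out.

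Replicate 2 had the lowest E2f7 and E2f8 of the BDL and of the MZ libraries, and it had the lowest summed level of 20 genes of G2 and M phase as well, at 35.02 FPKM in BDL and 38.8 in MZ. The other sums were 37.3 and 38.3 in BDL, 50.8 and 49.5 in MZ and 19.8 to 21.9 in FO. The part of the date in this was not tested.

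The 2 pocket protein genes moved in opposite directions between MZ and FO cells. Rb1 was measured at 23.0, 23.9 and 24.6 FPKM in FO, 29.1, 34.0 and 28.5 in BDL and 38.3, 45.7 and 33.0 in MZ. FO was lowest with no overlap, and MZ replicate 3 fell within the range of BDL. Rb1 rose by 0.69 in MZ over FO (SE 0.127, adjusted p = 0.00433), while the values of 0.35 in BDL over FO (95% interval 0.06 to 0.64, adjusted p = 0.132) and -0.34 in BDL over MZ (adjusted p = 0.0782) did not pass. Without BDL replicate 2 the value of BDL over MZ passed (adjusted p = 0.0473), as it did without MZ replicate 3 (adjusted p = 0.0341). It also passed with upper quartile scaling (-0.46, adjusted p = 0.00752) and with quantile normalization (-0.49, adjusted p = 0.00859), so the call depends on the scaling. In the annotation 6.78% of the Rb1 exon bases also lie in Lpar6, a receptor gene on the opposite strand, and 8.11% in Rcbtb2. Lpar6 was at 3.69 ± 0.194 FPKM in FO, 2.88 ± 0.662 in BDL and 8.61 ± 1.17 in MZ, and Rcbtb2 at 2.55 ± 0.169, 3.27 ± 0.396 and 4.26 ± 0.286. The labels call the libraries not strand specific while the study names a stranded kit, so reads of these genes and of Rb1 may not be separable over the shared bases. For E2f8 the same holds of 5.03% of exon bases, shared with Gm2788.

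Rbl1, which encodes the p107 protein that E2F induces in cycling cells, was at 9.47, 10.0 and 8.96 FPKM in FO, 9.01, 9.50 and 8.33 in BDL and 5.56, 5.92 and 5.05 in MZ. FO and BDL overlapped, and MZ lay below both. Rbl1 fell by 0.77 in MZ relative to FO (SE 0.0880, adjusted p = 3.37e-04), and BDL exceeded MZ by 0.69 (adjusted p = 7.38e-04), whereas BDL over FO was -0.08 (95% interval -0.29 to 0.12). Rb1 was thus 2.52 ± 0.194 times Rbl1 in FO, 3.41 ± 0.179 times in BDL and 7.04 ± 0.616 times in MZ, with no overlap. Rbl2 (p130), the third pocket protein gene and not among the 10, had 18.7 ± 0.275, 17.8 ± 2.29 and 16.1 ± 1.35 FPKM and passed in no comparison.

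The partners of these proteins were read from lists of pathway genes. Over all rows tested, 7.73% passed in BDL over FO, 28.1% in BDL over MZ and 27.1% in MZ over FO. The shares called were 1.91%, 7.8% and 8.92%. Of 10 DP and DREAM genes, 3 rose in BDL over FO and 0 were called. In MZ over FO 2 were called, both higher: Mybl2, which encodes the mitotic activator B-MYB (1.84 on the log2 scale, adjusted p = 7.66e-05), and Tfdp1, which encodes the DP1 partner of the E2Fs (1.57, adjusted p = 8.25e-06). Mybl2 was the 1 gene of the list called between BDL and MZ, and it fell by 1.013 in BDL. Tfdp1 was at 5.33, 6.10 and 5.76 FPKM in FO, 12.1, 10.3 and 12.2 in BDL and 17.2, 17.4 and 16.8 in MZ. As with E2f1, no subset overlapped another and BDL lay between. Tfdp2, the other DP gene, was instead highest in BDL, at 4.31 to 4.59 FPKM against 3.02 to 3.17 in FO and 2.74 to 3.01 in MZ. It passed in BDL over FO (0.51, adjusted p = 0.00623) and in BDL over MZ (0.62, adjusted p = 4.89e-04). Of the whole list 3 genes rose and 2 fell in BDL over MZ, and 2 rose and 1 fell in MZ over FO. The list had a median log2 fold change of 0.16 in BDL over FO against 0.05 for all rows, 0.20 against 0.06 in BDL over MZ, and -0.17 against -0.01 in MZ over FO.

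Of the genes for kinases that phosphorylate RB and for their cyclins, 8 of 9 were tested. In BDL over FO 4 rose and 0 fell, and the 2 that were called were the D-type cyclin Ccnd2 (2.21, adjusted p = 1.36e-04) and its kinase partner Cdk6 (1.147, adjusted p = 8.22e-04). The same genes were the 2 called in BDL over MZ, at 1.22 and 1.07. Ccnd2 was at 24.3 to 24.6 FPKM in BDL, 4.70 to 6.32 in FO and 9.23 to 12.1 in MZ, and Cdk6 at 6.81 to 8.56, 3.19 to 3.44 and 3.23 to 3.74. Neither was called in MZ over FO, where 3 genes of the list rose. The list medians were 0.49 in BDL over FO, 0.31 in BDL over MZ and 0.18 in MZ over FO. Those of all rows were 0.05, 0.06 and -0.01. Over all rows 7.73%, 28.1% and 27.1% passed in these comparisons, and 1.91%, 7.8% and 8.92% were called. Of 7 inhibitors of these kinases 4 were tested. Cdkn2d (p19) was at 1.33 to 2.26 FPKM in MZ against 7.15 to 10.7 in BDL and 7.72 to 9.23 in FO, and was called in both comparisons with MZ (2.23 for BDL over MZ and -2.21 for MZ over FO). Cdkn1a (p21), an inhibitor induced by p53, fell by 2.23 in MZ relative to FO (adjusted p = 0.00566). In BDL over FO 1 of the 4 rose and 0 fell. This was Cdkn2c, at 5.23 FPKM in BDL against 2.71 in FO (0.90, adjusted p = 0.0148), which was not called. In BDL over MZ 1 rose and 0 fell, and in MZ over FO 0 rose and 2 fell. The medians of the 4 tested inhibitors were -0.006, 0.82 and -1.08 in the same order of comparisons. Among 5 subunits of the ubiquitin ligases that degrade E2Fs, Cks1b was called higher than FO in BDL (1.10) and in MZ (1.07). The medians of these 5 genes were 0.12, 0.03 and 0.20 in that order.

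Target genes of the G1/S transition, which E2F activators switch on for DNA synthesis, were tested for 28 of 30. Over all rows tested, 7.73% passed and 1.91% were called in BDL over FO. The shares were 28.1% and 7.8% in BDL over MZ, and 27.1% and 8.92% in MZ over FO. In BDL over FO 13 of the 28 targets rose, 0 fell and 5 were called, and the median log2 fold change was 0.46 against 0.05 for all rows. The highest were Dtl (2.05, adjusted p = 0.00360), Uhrf1 (1.74, adjusted p = 1.25e-04) and Rrm2 (1.42, adjusted p = 0.00347), which serve replication licensing, maintenance of DNA methylation and nucleotide supply. In MZ over FO 10 rose, 1 fell and 6 were called, with the same 3 genes at the top (Dtl 2.30, Rrm2 1.67 and Uhrf1 1.35) and a median of 0.17 against -0.01. In BDL over MZ 11 rose and 2 fell, with a median of 0.20 against 0.06, and the 1 gene called was the thymidine kinase Tk1, which fell by 1.53 (adjusted p = 0.0316). Summed over the list, the level was 251 to 278 FPKM in FO, 305 to 322 in BDL and 274 to 299.7 in MZ.

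For targets of G2 and M phase, which DREAM holds off in resting cells and B-MYB with MuvB switches on, 17 of 20 were tested. BDL over FO had 12 that rose, 0 that fell and 7 called, with a median of 0.85 against 0.05. Highest were Mki67 (2.42, adjusted p = 1.44e-04), the marker of cycling cells, Top2a (1.96), which untangles chromosomes, and Nusap1 (1.498), a spindle protein gene. MZ over FO had 14 that rose, 0 that fell and 10 called, with a median of 1.08 against -0.01, led by Mki67 (2.90), Nusap1 (2.16) and Top2a (2.101). In BDL over MZ 7 fell, 0 rose and 0 were called, and the median was -0.26 against 0.06. Over all rows 7.73% passed in BDL over FO, 27.1% in MZ over FO and 28.1% in BDL over MZ. The shares called were 1.91%, 8.92% and 7.8%. Both lists hold genes that cells use while they cycle, and an mRNA level does not give the share of cells in cycle. The study measured that share by flow cytometry for the protein of Mki67, and found it lowest in FO cells and higher in BDL. From its RNA sequencing it also reported increased expression of cell cycle genes in BDL relative to FO.

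**Figure D5:**
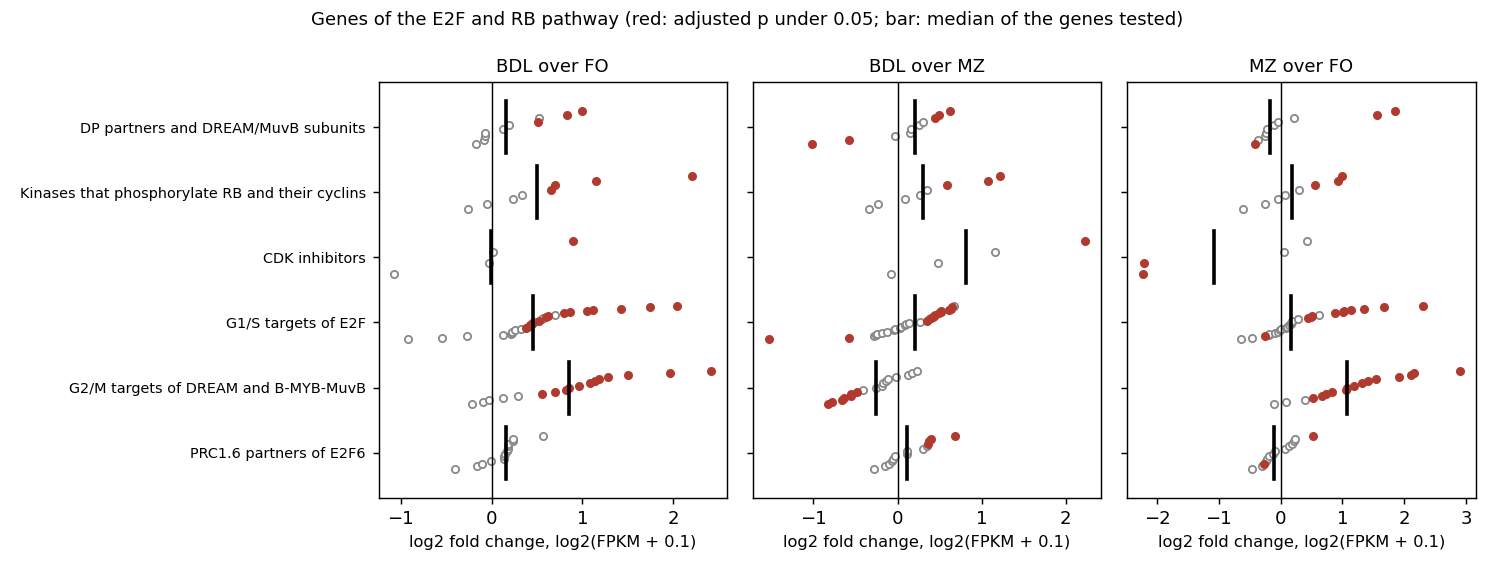
Log2 fold change (x axis, on log2(FPKM + 0.1)) of each tested gene in 6 lists of the pathway (y axis), in the 3 comparisons. Red points have an adjusted p under 0.05, and black bars are the medians of the tested genes. The bar of the G2/M targets is at 0.85, -0.26 and 1.08 from left to right, and that of the G1/S targets at 0.46, 0.20 and 0.17.

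For the members called in any comparison, the rows most like them over the 9 libraries were sought by the Pearson correlation of log2(FPKM + 0.1). The libraries fall into 3 subsets, so these values mainly follow the subset levels, and they are given as a description. For E2f1 the first 3 of 11596 other rows were Cfp (r = 0.998), which encodes the complement factor properdin, Tfdp1 (r = 0.995), and Elovl6 (r = 0.991), a fatty acid elongase gene. For E2f2 they were Rgag4 (r = 0.993), Ddah2 (r = 0.992) and Kmo (r = 0.992), a gene of tryptophan breakdown. For E2f7 the closest of 11597 rows were Pstpip2 (r = 0.988), the checkpoint kinase Chek1 (r = 0.985) and Havcr1 (r = 0.983), which encodes TIM-1. For E2f8 they were the condensin gene Ncapg2 (r = 0.993), the mitotic cyclin Ccnb1 (r = 0.987) and Rrm2 (r = 0.987). Ddah2 peaked in BDL as E2f2 did, at 1.58 FPKM in FO, 2.86 in BDL and 0.430 in MZ, whereas Ncapg2 was at 0.395, 0.832 and 0.908.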

How the data were processed

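The mRNA of FACS-sorted splenic B cells was sequenced in 9 libraries. Per the labels and the study's methods, the authors mapped reads to mm9 with TopHat2 2.1.0 and estimated FPKM per gene with Cufflinks. The Cufflinks version and the annotation are not given in the sources used here. The deposited FPKM table is in linear units with no counts. A deposited table of the authors' own comparisons (fold changes and p-values) was not used. Rows were assigned to libraries by column name.

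FPKM was tested as log2(FPKM + 0.1) with limma 3.58.1 (lmFit, eBayes with a trend) in R 4.3.3, on rows whose mean reached 0.5 FPKM, using all 9 libraries with subset as the factor, for 3 comparisons. Adjusted p is Benjamini-Hochberg over all rows of a fit, and p-values measure the spread between pools. The smallest p an exact two-sided permutation test of 3 against 3 libraries allows is 0.1, so none is used. The script was tested on simulated data. Of the 271 repeated symbols, the first row was read.

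The members and the gene lists were chosen with earlier results of these data known. The text names all 10 members, up to 3 called genes of each list per direction and comparison with the largest fold changes, and the 3 rows most like each called member. Rbl2, Tfdp2, Cdkn2c, markers of other cells and genes that overlap members are named beside them, some after their values were seen.

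Replicate numbers stand for the dates in the titles, which the 3 subsets share, so they were read as pairing the libraries. Whether a date is that of sorting or of another step is not stated there. Deviations from the subset means correlated for same-dated libraries at 0.147, 0.049 and -0.062 (replicates 1, 2 and 3) in BDL and FO, at 0.1, 0.244 and 0.182 in BDL and MZ, and at 0.024, 0.014 and 0.008 in MZ and FO. The fit with the date as a block was an alternative, with other constants, minimums, scalings and left-out libraries. Approximate fragments were read from the spacing of low FPKM values in genes with 1 transcript, of which 77.2% to 81.7% lay within 0.1 of a whole number. The spacing was chosen for closeness to whole numbers on these same values, 78 to 116 per library, so this share does not test it. Intervals of limma are 95%. Exon overlap was computed from GENCODE M1 on NCBIM37. Figures were drawn with matplotlib 3.10.9.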

Additional observations from a re-analysis of the deposited data

How the results depend on the processing

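Over 30 member values (10 genes in 3 comparisons) and their alternatives there were 678 repeats, of which 639 kept direction and side of the threshold. In 21 a value no longer passed, in 17 it came to pass, and 1 turned its direction, E2f4 in BDL over FO after quantile normalization (-0.00954, adjusted p = 0.953). The cause was not tested in any of these. E2f1, E2f2, E2f8 and Rbl1 kept both under every alternative run, in all 3 comparisons.

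The number of members called moved with the minimum and the fold, both of which change what can be called. In BDL over FO it was 0. It was 1 with a minimum of 0.1 FPKM, with none, or with none and the date as a replicate block. It was 2 with no minimum and 0.01 added, 3 with adjusted p alone and 5 with neither minimum nor fold. Over all rows 221 of 11597 were called, and 307 of 13472 with a minimum of 0.1 FPKM. Of 18518 rows it was 302 with no minimum, 339 with the block too and 480 with 0.01 added. With adjusted p alone 896 of 11597 rows passed, and 1100 of 18518 with neither. In BDL over MZ it was 1, and 3 with adjusted p alone or 4 with neither. Of 11597 rows 905 were called and 3255 passed the adjusted p alone. The share of all rows with neither minimum nor fold was not computed for BDL over MZ, so the 4 members have no background beside them. In MZ over FO it was 2. It was 4 with a minimum of 0.1 FPKM, with none, with none and 0.01 added, or with none and the block. It was 7 with adjusted p alone and 9 with neither. Over all rows 1035 of 11597 were called, and 1376 of 13472 with a minimum of 0.1 FPKM. Of 18518 rows it was 1411 with no minimum, 1914 with 0.01 added and 1472 with the block. With adjusted p alone 3141 of 11597 rows passed, and 3939 of 18518 with neither. Members past the adjusted p were 3 in BDL over FO, and 5 with a minimum of 0.1 FPKM, with none, with none and 0.01 added, or with none and the block. Over all rows 7.73% passed there, and 5.94% with no minimum. In BDL over MZ members past the adjusted p were 3, and 6 with the block, with or without the minimum. They were 5 with upper quartile scaling, quantile normalization or without BDL replicate 2. Over all rows 28.1% passed, and 42.7% with the block and the minimum. The share of all rows past the adjusted p was not computed for the other settings. The block changed no other call with the minimum in place, and without it that of E2f5 in MZ over FO was lost (adjusted p = 0.0594).

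Leaving out 1 library at a time gave 0 to 0, 1 to 1 and 2 to 2 members called in BDL over FO, BDL over MZ and MZ over FO, and 2 to 3, 3 to 5 and 6 to 7 past the adjusted p. Over all rows, 167 to 220, 880 to 969 and 982 to 1074 were called in these fits. Upper quartile scaling moved the median log2 fold change of all rows in BDL over MZ from 0.06 to -0.05. E2f7 and E2f8 in FO rest on at most 14 fragments, so their ratios to FO are loose.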
